A study of Mus musculus with 20 samples.

Results

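Serotonin is made from tryptophan by Tph1 or Tph2 and then Ddc, acts on receptors such as Htr2a and Htr2b, is taken back into cells by Slc6a4 and is broken down by Maoa and Maob. These 8 genes were followed in the groin's subcutaneous fat pad, the inguinal white adipose tissue (iWAT), out of 36611 genes with values. They were picked from measured values, because Tph2 was much higher on high fat diet, so the values between diets are a description without a test. All 8 genes were in the table, and expression is given as TPM summed over the transcripts of a gene, a relative level scaled by transcript length and library size.

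RNA of 20 female mice, labelled C57BL/6, was sequenced in 4 groups of 5. By the methods, the floxed line was C57BL/6 N Tac and the Cre line C57BL/6 J. Controls were Tmem120a fl/fl littermates without Cre, and knockout mice (Ad-Tmem120a-/-) carried the same floxed alleles with Adipoq-Cre, which removes exons 2 and 3 of Tmem120a in adipocytes and leaves the other cells of the fat pad intact. Each genotype was kept for 15 weeks on a diet with 10.5% fat (LFD, low fat) or with 58% fat (HFD, high fat), and mice were 6 months old and fasted at collection. Libraries were made from ribosome-depleted total RNA and hold between 54605101 and 92387737 estimated counts, and no 2 were identical. Tmem120a had a mean of 119 TPM ± 44.5 (SD, n = 5) in controls and 51.6 TPM ± 26.7 (SD, n = 5) in knockouts on HFD, and of 85.4 TPM ± 28.4 and 41.5 TPM ± 21.9 on LFD. Over both diets it was lower in knockouts by a log2 fold change of -1.64 (edgeR, adjusted p = 0.00452), although the groups overlapped on each diet. On each diet alone the log2 fold changes were -1.67 on HFD and -1.61 on LFD. There Tmem120a was not under an adjusted p of 0.1 (edgeR, adjusted p = 0.173 and 0.929). Defining genes of white adipocytes summed to between 15321 and 32228 TPM in the 20 libraries.

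Hydroxylation of tryptophan is the slow step of serotonin synthesis, and the 2 enzymes that carry it out divide the body between them. Tph1 is the enzyme of the gut's enterochromaffin cells, the pineal gland and mast cells, while Tph2 is the enzyme of serotonin neurons of the brainstem. Serotonin outside the brain acts on fat, blood vessels and the gut, and because it hardly crosses the blood-brain barrier the peripheral and central pools are kept apart.

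Tph1 (ENSMUSG00000040046) lies on the minus strand at chr7:53902500-53927907 and Tph2 (ENSMUSG00000006764) on the minus strand at chr10:114515697-114622078 in mm9. All of the Tph2 signal came from Tph2-001, a protein-coding transcript of 11 exons and 2626 bases, and the short Tph2-002 was listed at 0 in every library. Of the summed Tph1 TPM, 65.1% came from the protein-coding Tph1-001 (11 exons, 1762 bases) and 27.1% from Tph1-008, a retained-intron fragment of 516 bases. Tph1-002, which starts 5160 bases further upstream, took 0.0550%. The 250 bases before the start of the transcripts in use are shown because the enzymes had opposite levels on the diets. They are from RefSeq on GRCm38.p6, at chr7:46667378-46667627 for Tph1 and chr10:115185023-115185272 for Tph2, both on the minus strand, and run 5′ to 3′ up to the start. Capitals mark TATAA and CCAAT, searched on both strands.
Tph1: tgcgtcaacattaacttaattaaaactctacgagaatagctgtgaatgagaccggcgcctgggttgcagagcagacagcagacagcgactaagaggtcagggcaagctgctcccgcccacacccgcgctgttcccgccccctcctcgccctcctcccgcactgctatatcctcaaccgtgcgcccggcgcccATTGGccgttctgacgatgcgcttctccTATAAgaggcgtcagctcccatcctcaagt
Tph2: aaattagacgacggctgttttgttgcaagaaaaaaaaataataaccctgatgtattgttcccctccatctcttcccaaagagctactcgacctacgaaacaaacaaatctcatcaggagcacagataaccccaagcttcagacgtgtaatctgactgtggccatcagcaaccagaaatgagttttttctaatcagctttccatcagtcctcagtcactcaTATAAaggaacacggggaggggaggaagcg
Each holds 1 TATAA match, beginning 30 bases before the start. Tph1 also has CCAAT on the opposite strand, printed as ATTGG, from 58 bases before the start, and Tph2 has no such match in this window. Of 32851 RefSeq promoter windows of the same length, 22.8% hold TATAA and 33.8% hold CCAAT in either orientation. The Tph1 window is 58.8% G and C and the Tph2 window 43.6%.

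Tph2 was close to 0 on LFD and reached several TPM in most libraries on HFD. In controls on LFD it stood at 0.878, 0.261, 0.138, 0.0149 and 0.127 TPM in mice 1 to 5. In knockouts on LFD it stood at 0.138, 0.534, 0.627, 0.0274 and 0.0241 TPM in mice 6 to 10. These levels rest on between 2 and 110 estimated counts, and 3 of the 10 LFD libraries held at most 3 counts. In controls on HFD the values were 6.11, 11.7, 6.30, 12.6 and 24.0 TPM in mice 11 to 15, from 754 to 2793 counts. In knockouts on HFD they were 0.788, 7.67, 5.26, 0.917 and 8.05 TPM in mice 17 to 21, from 116 to 930 counts. Every HFD library of a genotype was above every LFD library of that genotype, and 2 knockout mice on HFD, 17 and 20, were close to the highest LFD control. The order of the group means was 12.1 TPM ± 7.26 in controls on HFD, 4.54 TPM ± 3.53 in knockouts on HFD, 0.284 TPM ± 0.343 in controls on LFD and 0.270 TPM ± 0.289 in knockouts on LFD (SD, n = 5), and neighbours overlapped at every step, the second step through knockout mouse 17 on HFD and control mouse 1 on LFD alone. The ratio of the means between diets was 42.8 in controls and 16.8 in knockouts. On the scale of log2(TPM + 1) the difference was 3.23 ± 0.37 (SE) in controls and 1.83 ± 0.54 in knockouts, and the edgeR log2 fold changes were 5.24 ± 0.83 and 4.03 ± 0.97. In whole tissue, more cells that express a gene and more RNA per cell cannot be told apart.

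**Figure D1:**
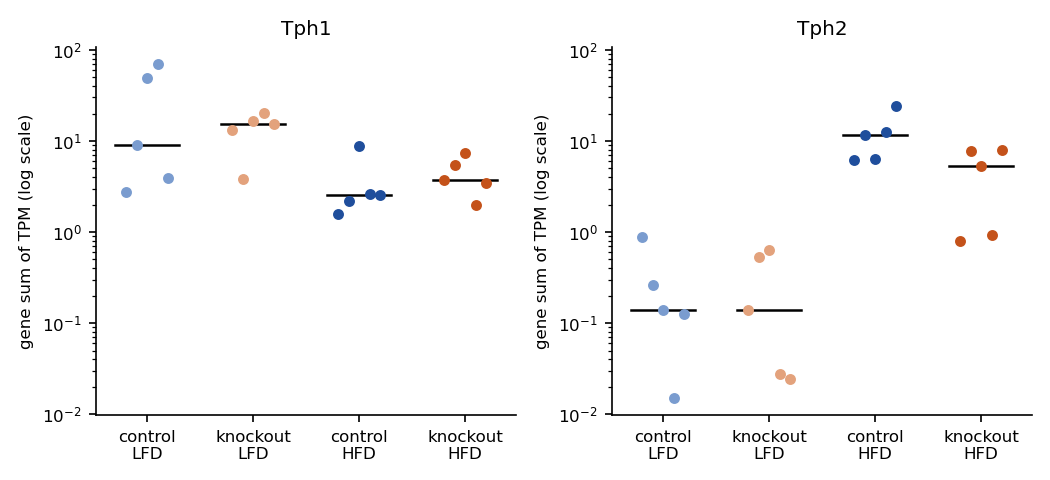
Gene sums of TPM for Tph1 and Tph2 in each of the 20 libraries (points, log scale) by genotype and diet, with the group median as a line. Tph2 is below 0.9 TPM in every LFD library and above 6 TPM in every control library on HFD, while Tph1 has its highest values, 48.8 and 70.4 TPM, in controls on LFD.

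Tph1 had the opposite order between diets, with groups that overlapped. In controls on LFD it stood at 2.78, 8.96, 48.8, 70.4 and 3.92 TPM in mice 1 to 5. In knockouts on LFD it stood at 13.3, 3.82, 16.6, 20.1 and 15.4 TPM. The spread between mice was thus wide on LFD, and the mean of the LFD controls, 26.97 TPM ± 30.8 (SD, n = 5), rests on mice 3 and 4. In controls on HFD Tph1 stood at 1.58, 2.21, 8.87, 2.60 and 2.57 TPM. In knockouts on HFD it stood at 3.69, 5.44, 7.34, 1.97 and 3.46 TPM. The difference of HFD from LFD on the log2(TPM + 1) scale was -1.86 ± 0.93 (SE) in controls and -1.39 ± 0.45 in knockouts. The edgeR log2 fold changes were -3.21 ± 0.99 and -1.78 ± 0.43. Leaving out single mice moved the first of these differences between -2.34 and -1.28.

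The share of Tph2 in the summed hydroxylase TPM was higher on HFD than on LFD in each genotype. By these sums Tph2 was the larger of the pair on HFD in 4 of 5 controls and 2 of 5 knockouts. Tph2 was 24.0%, 2.83%, 0.282%, 0.0212% and 3.14% of the summed Tph1 and Tph2 TPM in controls on LFD. It was 1.03%, 12.3%, 3.65%, 0.136% and 0.157% in knockouts on LFD. Tph1 was the larger of the pair in all of these libraries. On HFD the share of Tph2 was 79.4%, 84.1%, 41.5%, 82.9% and 90.3% in controls. It was 17.6%, 58.5%, 41.7%, 31.8% and 69.9% in knockouts. Tph1 thus stayed the larger in 3 knockouts on HFD and in 1 control. This control mouse, with the lowest share of its group, mouse 13, is the one with the highest Tph1 of its group. The shares count every Tph1 transcript, fragments included. In knockout mouse 19 Tph1-001 alone was 1.68 TPM, below 5.26 TPM of Tph2, and Tph1-008 was 4.58 TPM. In knockout mouse 18 Tph1-001 was 0.0231 of 5.44 TPM. In knockout mice 17 and 20 and control mouse 13, Tph1-001 alone still exceeded Tph2. The sum of both genes overlapped between all groups, with medians of 9.22 and 15.4 TPM in controls and knockouts on LFD and of 15.2 and 11.5 TPM on HFD.

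**Figure D2:**
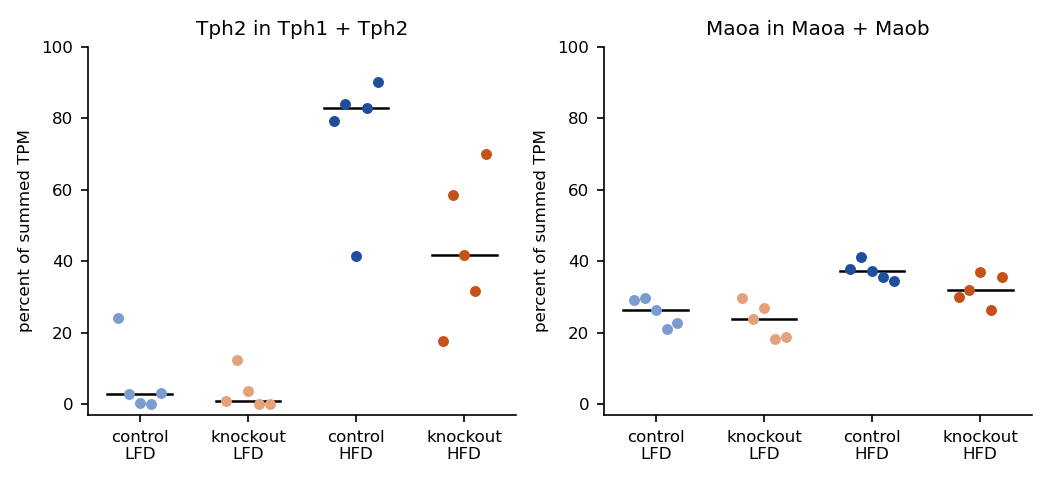
Percent of the summed TPM of Tph1 and Tph2 that was Tph2 (left) and of Maoa and Maob that was Maoa (right), per library (points) with group medians (lines). All transcripts of each gene are counted, fragments included. Medians of the Tph2 share were 2.83% and 1.03% on LFD and 82.9% and 41.7% on HFD in controls and knockouts, and those of the Maoa share were 26.5% and 24.0% against 37.3% and 32.1%.

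Markers of mast cells and of neurons in general did not separate the diets. No marker list was made for enterochromaffin cells, the pineal gland or serotonin neurons. The sum of 11 mast cell genes lay between 182 and 360 TPM in controls on LFD and between 213 and 296 TPM on HFD, and it was 242 and 309 TPM in the mice with 48.8 and 70.4 TPM of Tph1. The sum of 8 lymphocyte genes was 5.83, 116, 143, 162 and 36.2 TPM in control mice 1 to 5 on LFD, which is the order of their Tph1. In knockout mice 6 to 10 on LFD it was 190, 140, 84.2, 109 and 167 TPM and did not follow Tph1. The sum of 9 neuron genes lay between 1.97 and 6.15 TPM over all libraries, and Dbh, which makes noradrenaline, had at most 3 counts in each. The sum of 10 mammary and skin epithelium genes lay between 215 and 401 TPM in controls on LFD and between 107 and 411 TPM on HFD. None of 12 marker lists had sums that parted the diets in controls without overlap. Between the diets the mean sum of 10 white adipocyte genes differed 1.25-fold in controls and 1.45-fold in knockouts, that of 6 endothelial genes 1.49-fold and 1.38-fold, that of 6 brown and beige fat genes 0.316-fold and 1.05-fold, and that of 10 skeletal muscle genes 0.0234-fold and 1.62-fold. The part of these cells in the values of Tph1 and Tph2 was not tested.

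The gene 12855 bases from the upstream end of Tph2, Tbc1d15, did not share its pattern, with means of 14.8 and 17.7 TPM on LFD and 10.9 and 11.1 TPM on HFD in controls and knockouts. On the other side the nearest gene with at least 0.5 TPM, Trhde, lay 276334 bases away with means of 4.53, 5.19, 7.61 and 6.95 TPM in the same order. Among 15574 genes, the 10 with values most like those of Tph2 over the 20 libraries were Gcnt2, Lipf, Fgf9, Ddah1, Olfml3, Cdkl4, Tfg, Fam122b, Spats2 and Ell2, with Pearson r of log2(TPM + 1) from 0.941 to 0.965. The largest ratio between group means among them was that of Lipf, which encodes a gastric lipase, with means of 1.04 and 0.529 TPM on LFD and 24.8 and 11.8 TPM on HFD. These libraries share the diets, so r was also computed after the group means were removed. It was then highest for Ddah1, Fam122b, Fgf9, Cdkl4, Gda, Lipf, Gcnt2, Lxn, Slco3a1 and Olfml3, from 0.819 to 0.890, and 7 of these genes are in both lists. Libraries also differ in tissue make-up, which such a likeness carries with it.

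Between genotypes on HFD, Tph2 was lower in knockouts by a log2 fold change of -1.49 ± 0.64 (SE) but was not called (edgeR, unadjusted p = 0.0378, adjusted p = 0.999). The exact permutation test on log2(TPM + 1) gave p = 0.0635, and 3 of 5 knockout libraries lay below every control. Both tests use HFD libraries by which Tph2 was chosen and are not independent of that choice. The alternatives gave log2 fold changes from -1.49 to -1.41 with adjusted p from 0.667 to 0.99995. On LFD the permutation p was 0.992, at levels where counts are few. Over both diets the log2 fold change was -0.93 ± 0.62 (edgeR, adjusted p = 0.742). That fit holds the same HFD libraries, so it is not independent of the choice either. The sum of skeletal muscle genes, all 10 of which were higher in the mean of knockouts on HFD, was 8.14 to 58.1 TPM in controls and 45.0 to 1623 TPM in knockouts, and in knockout mice 17 to 21 it was 1623, 342, 1022, 854 and 45.0 TPM. In the same order Tph2 was 0.788, 7.67, 5.26, 0.917 and 8.05 TPM. The part of muscle in the difference was not tested.

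No member was called between genotypes in any of 4 edgeR comparisons at an adjusted p under 0.1. Of all genes tested 0.00657% were called on HFD, 0.00636% on LFD, 0.0385% over both diets and 0% for the genotype effect on HFD against that on LFD, so calls were rare throughout. Tmem120a itself was called in these edgeR tests only over both diets. Of the 8 members 6 could be tested on HFD, 5 on LFD and 6 over both diets, since Ddc and Htr2b, and Tph2 on LFD, were under a mean of 0.5 TPM. At an unadjusted p under 0.05 there was 1 member on HFD, Tph2, 1 on LFD, Maoa, and 1 over both diets, again Maoa. Of all genes tested, 4.66%, 5.11% and 7.44% had such a p. Tph2 was chosen by its HFD values, so nothing is read from its place in this count. Over both diets Tph2 passed the minimum only through its HFD groups. Other tests gave no call of a member either. Tph1 had log2 fold changes of 0.17 ± 0.48 on HFD and -1.26 ± 0.91 on LFD (edgeR, adjusted p = 0.999 and 0.933).

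**Figure D3:**
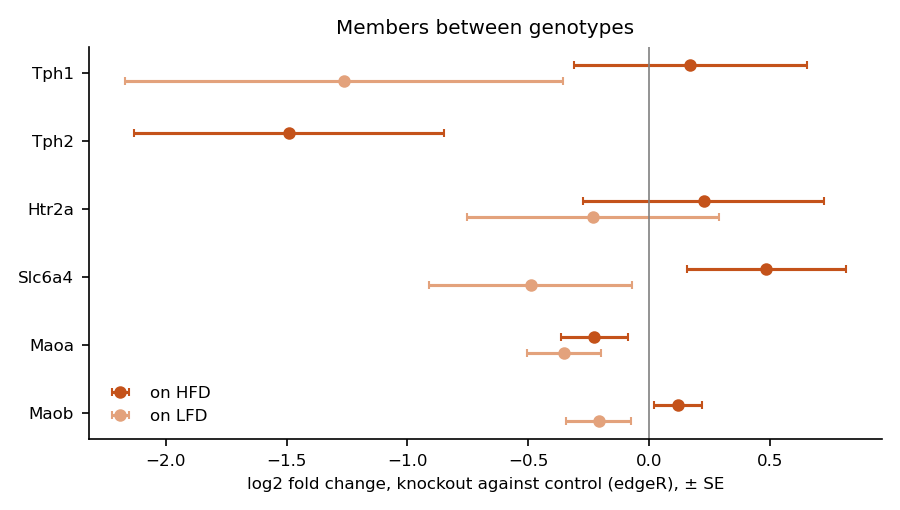
edgeR log2 fold changes of knockouts against controls with their standard errors, on HFD (dark) and LFD (light), for the members above the minimum level (Tph2 on HFD only). Maoa is below 0 on both diets, at -0.23 and -0.35, and the standard errors of Tph1 are the widest on LFD at 0.91.

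Ddc, which decarboxylates 5-hydroxytryptophan to serotonin and also serves dopamine synthesis, was at the limit of detection. The gene (ENSMUSG00000020182, chr11:11714104-11798047, minus strand) ranged from 0 to 1.08 TPM with at most 47 counts in a library, and 4 of 20 libraries held at most 3 counts. Only 22.4% of its TPM came from Ddc-001, the transcript of 15 exons, which was above 0 in 8 of 20 libraries and reached 0.372 TPM. The group means were 0.334 ± 0.368 and 0.180 ± 0.184 TPM on LFD and 0.515 ± 0.437 and 0.342 ± 0.239 TPM on HFD in controls and knockouts (SD, n = 5), so no difference was detectable at this depth. Levels of a transcript fragment do not show that the full message was made.

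The receptors Htr2a and Htr2b, which couple through Gq to phospholipase C, were near 1 TPM or below. Htr2a (ENSMUSG00000034997, chr14:75040647-75106666, plus strand) had 14 to 314 counts per library. Its values were 0.835, 0.988, 0.493, 0.406 and 0.442 TPM in controls on LFD and 0.591, 0.663, 1.03, 0.527 and 0.104 TPM in knockouts on LFD. On HFD they were 0.617, 1.18, 0.517, 1.17 and 1.34 TPM in controls and 1.12, 2.45, 0.594, 0.936 and 0.620 TPM in knockouts. Mouse 18 stood highest, and all groups overlapped. Between diets the difference in log2(TPM + 1) was 0.26 ± 0.16 (SE) in controls and 0.40 ± 0.25 in knockouts. Between genotypes the edgeR log2 fold changes were 0.23 ± 0.50 on HFD and -0.23 ± 0.52 on LFD (adjusted p = 0.999 and 0.955), and without mouse 18 the first was -0.28. Htr2b (ENSMUSG00000026228, chr1:87995601-88008545, minus strand) ranged from 0 to 1.61 TPM with at most 52 counts. It was listed at 0 in 2 knockout libraries on LFD and in 3 on HFD, and in no control library. For gene sums the exact permutation p between genotypes was 0.484 on HFD and 0.230 on LFD. Of the summed TPM 61.7% was Htr2b-002, a short transcript of 520 bases. On HFD the longer Htr2b-001 (2083 bases) stood at 0.332, 0.274, 0.280, 0.320 and 0.339 TPM in controls. In knockouts on HFD it stood at 0.156, 0, 0, 0.0850 and 0 TPM, without overlap. On LFD its means were 0.137 and 0.175 TPM in controls and knockouts, with overlap. Htr2b-001 alone was not tested, and counts were few.

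Slc6a4, the serotonin transporter (ENSMUSG00000020838, chr11:76812105-76845842, plus strand), was the member whose groups separated between genotypes in gene sums of TPM as deposited. On HFD it stood at 0.867, 0.630, 0.840, 0.653 and 0.581 TPM in controls and at 1.06, 1.09, 0.993, 0.901 and 1.14 TPM in knockouts. All 5 knockout libraries were above all 5 controls, with an exact permutation p of 0.00794, the smallest that 5 mice against 5 allow, unadjusted and 1 of 16 tests over members and diets. This was 1 of 8 members, of which Ddc and Htr2b were under a mean of 0.5 TPM. Of the 15228 genes with at least that mean on HFD, 0.690% had groups apart in either direction. After TMM scaling of TPM the exact permutation p of Slc6a4 on HFD was 0.0159. That is above the smallest possible, so the groups then overlapped. On LFD no member had groups apart, against 1.40% of all genes.

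The position of knockout mouse 18 rested on a short transcript of Slc6a4. In this mouse, 0.783 of its 1.09 TPM was assigned to Slc6a4-002, a fragment of 3 exons and 641 bases, and 0.302 TPM to Slc6a4-001 (14 exons, 2725 bases), which carries 80.3% of the TPM of the gene. Control mouse 15 likewise had 0.297 of its 0.581 TPM on Slc6a4-002. Knockout mouse 9 on LFD had 0.683 of its 0.691 TPM there, 0.00748 TPM on Slc6a4-001 and 35 estimated counts. The 104 estimated counts of mouse 18 fell within the range of the controls, 68 to 187. With Slc6a4-001 alone the exact permutation p was 0.294, and with estimated counts as a share of the library it was 0.0714. The edgeR test on counts gave a log2 fold change of 0.49 ± 0.33 (SE) and did not call it (unadjusted p = 0.165, adjusted p = 0.999). Without mouse 18 the test on TPM as deposited gave an exact permutation p of 0.0159, the smallest that 4 mice against 5 allow. On this scale the other 4 knockouts stayed above all controls also on Slc6a4-001, at 0.901 TPM or more against 0.840 TPM or less. On LFD the values were 0.678, 1.48, 0.651, 1.13 and 0.807 TPM in controls and 0.664, 1.17, 0.684, 0.691 and 0.936 TPM in knockouts, with an edgeR log2 fold change of -0.49 ± 0.42 (adjusted p = 0.933). The difference of the genotype effects between diets was 0.96 ± 0.52 (edgeR, unadjusted p = 0.0790, adjusted p = 0.9999). Between diets Slc6a4 differed by -0.17 ± 0.12 in log2(TPM + 1) in controls and by 0.16 ± 0.08 in knockouts. On HFD, where the muscle genes were higher in knockouts, the 11 mast cell genes summed to between 213 and 296 TPM in controls and between 275 and 410 TPM in knockouts, and the 7 genes of platelets, which take up serotonin through this transporter, to between 49.7 and 59.9 TPM and between 41.2 and 53.5 TPM. The part of these cells in the result was not tested.

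**Figure D4:**
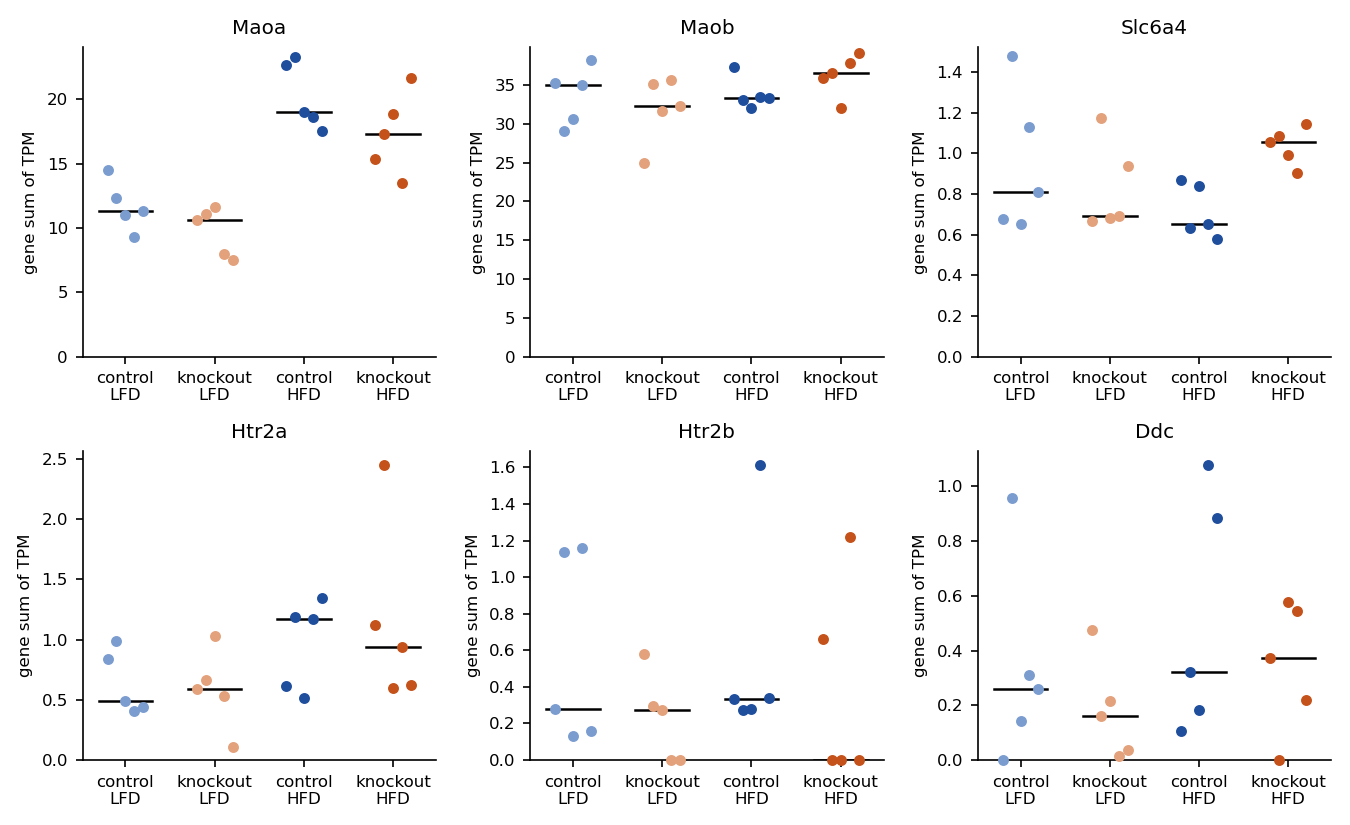
Gene sums of TPM per library (points) with group medians (lines) for the 6 other members, each on its own linear axis. Maoa is higher on HFD in both genotypes without overlap, Maob is between 25.0 and 39.2 TPM throughout, and Slc6a4, Htr2a, Htr2b and Ddc stay below 2.5 TPM.

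Maoa and Maob, the mitochondrial outer membrane oxidases of amines, were the members with the most counts at their lowest. Maoa prefers serotonin and noradrenaline as substrates and Maob phenylethylamine. The genes lie tail to tail 21464 bases apart, Maoa (ENSMUSG00000025037) at chrX:16196824-16264944 on the plus strand and Maob (ENSMUSG00000040147) at chrX:16286408-16394492 on the minus strand. Maob was the more abundant of the pair in all groups, with means of 33.6 ± 3.74 and 31.9 ± 4.26 TPM on LFD and 33.9 ± 2.04 and 36.3 ± 2.71 TPM on HFD in controls and knockouts (SD, n = 5). Over the 20 libraries it had the highest mean of the 8 members, 33.9 TPM, followed by Maoa at 14.8, Tph1 at 12.2, Tph2 at 4.30, Slc6a4 at 0.882, Htr2a at 0.832, Htr2b at 0.436 and Ddc at 0.343 TPM.

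Maoa stood at 14.5, 12.3, 11.02, 9.28 and 11.3 TPM in controls on LFD and at 22.6, 23.3, 19.05, 18.6 and 17.5 TPM in controls on HFD. In knockouts it stood at 10.6, 11.1, 11.6, 7.93 and 7.49 TPM on LFD and at 15.4, 17.3, 18.8, 13.5 and 21.6 TPM on HFD. HFD libraries were above LFD libraries without overlap in each genotype. The ratio of means was 1.73 in controls and 1.78 in knockouts, and the differences in log2(TPM + 1) were 0.75 ± 0.12 (SE) and 0.77 ± 0.16. On this scale the median of all genes also differed between diets, by 0.13 in controls and 0.08 in knockouts. The edgeR log2 fold changes were 0.55 ± 0.14 and 0.68 ± 0.15, where the median of all genes was -0.04 and 0.00. Maob differed by 0.01 ± 0.08 and 0.19 ± 0.10 in log2(TPM + 1) and by -0.24 ± 0.12 and 0.09 ± 0.11 in edgeR, so that its sign in controls depended on the scaling. The share of Maoa in the summed TPM of the pair was between 20.97% and 29.8% in controls on LFD and between 34.4% and 41.3% on HFD, and in knockouts between 18.2% and 29.9% and between 26.3% and 37.1%.

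Tph2 and Maoa were thus the members higher on HFD without overlap, 2 of 8 in each genotype, and 0 of 8 were lower without overlap. Of all genes, 8.32% were higher and 1.46% lower on HFD without overlap in controls, and 5.01% and 2.94% in knockouts. Since the members were chosen on this contrast, nothing is read from these counts.

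Between genotypes Maoa was lower in knockouts in the mean of each diet. The edgeR log2 fold change was -0.23 ± 0.14 on HFD (unadjusted p = 0.129, adjusted p = 0.999) and -0.35 ± 0.15 on LFD (unadjusted p = 0.0416, adjusted p = 0.929). Over both diets it was -0.30 ± 0.10 (edgeR, unadjusted p = 0.00826, adjusted p = 0.517), from -0.31 to -0.23 over the alternatives. The exact permutation p was 0.135 on HFD and 0.159 on LFD. Maob had log2 fold changes of 0.12 ± 0.10 on HFD and -0.21 ± 0.13 on LFD (edgeR, adjusted p = 0.999 and 0.929), and the difference of these was 0.31 ± 0.16 (edgeR, unadjusted p = 0.0582, adjusted p = 0.9999).

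The pathway around the members was described with 60 listed genes in 8 lists, of which 59 had values and 33 passed the minimum of 0.5 TPM in each comparison. In controls 3 of 33 were called higher and 1 lower on HFD, against 9.32% of all genes tested that were called in either direction. In knockouts 4 of 33 were higher and 1 lower, against 9.40% of all genes tested. The medians of the log2 fold changes were 0.05 and 0.07, against -0.04 and 0.00 over all genes tested. These are 12.1% and 15.2% of the pathway genes tested. Over 16 other settings, Afmid and Slc22a3 were called in controls in 16, Itpr3 in 13 and Pcbd1 in 9, and in knockouts Slc16a10 was called in 15, Itpr3 in 13, Aldh1a1 in 10, Slc3a2 in 7 and Slc22a3 in 4. The count in controls was 7 without mouse 1 and 2 without mouse 2 or 12, and that in knockouts was 1 without mouse 21, 2 without mouse 6, 8 or 19 and 3 without mouse 7, 9, 10, 17 or 18.

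Among genes that make and recycle tetrahydrobiopterin, the cofactor of both hydroxylases, 1 of 7 tested was called in controls and 0 of 7 in knockouts. Pcbd1, the dehydratase that regenerates the cofactor, rose from 4.88 ± 2.70 TPM on LFD to 13.2 ± 3.58 TPM on HFD in controls (SD, n = 5; edgeR log2 fold change 1.32 ± 0.39 SE, adjusted p = 0.0794). In knockouts its means were 4.23 and 8.95 TPM and it was not called. Gch1, the first enzyme of cofactor synthesis, had means from 1.15 to 1.74 TPM in the 4 groups.

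None of the 12 other serotonin receptors reached a mean of 0.5 TPM in any group, and 5 of them had at most 3 counts in every library. Of the 8 other amine transporters 3 could be tested. Slc22a3, a low-affinity carrier of monoamines, rose in controls from 5.48 ± 1.67 to 11.7 ± 2.18 TPM and in knockouts from 5.16 ± 0.889 to 8.003 ± 2.41 TPM (edgeR log2 fold changes 0.93 ± 0.21 and 0.59 ± 0.18, adjusted p = 0.0282 and 0.0911). Slc18a2, which loads amines into vesicles and is found in mast cells and platelets, had means of 0.846 and 0.925 TPM on LFD and 0.595 and 1.05 TPM on HFD and was not called.

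Of the 4 genes of tryptophan uptake, 2 were called higher on HFD in knockouts and 0 in controls, and whether the diets' effects differ between genotypes was tested with 0 of 33 pathway genes called (edgeR). Slc3a2, the heavy chain of the large neutral amino acid carrier, rose in knockouts from 29.1 ± 5.73 to 45.1 ± 11.7 TPM, and had 30.7 and 43.8 TPM in controls. Slc16a10, which carries aromatic amino acids, rose in knockouts from 6.07 ± 0.826 to 8.97 ± 1.22 TPM without overlap, and had 6.49 and 10.1 TPM in controls. The edgeR log2 fold changes in knockouts were 0.56 ± 0.16 and 0.57 ± 0.14 (adjusted p = 0.0678 and 0.0374).

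Of the genes past the oxidases, Aldh1a1, an aldehyde dehydrogenase best known for making retinoic acid, rose in knockouts from 50.8 ± 13.2 to 106 ± 31.0 TPM (edgeR log2 fold change 0.89 ± 0.26, adjusted p = 0.0674) and had 60.9 and 112 TPM in controls. Of 9 genes that carry the signal of the Htr2 receptors, 1 was called in each genotype. Itpr3, a calcium channel of the endoplasmic reticulum, fell from 1.89 ± 0.366 to 1.42 ± 0.208 TPM in controls and from 2.59 ± 0.492 to 1.38 ± 0.512 TPM in knockouts (edgeR log2 fold changes -0.58 ± 0.14 and -0.93 ± 0.25, adjusted p = 0.0423 and 0.0472).

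**Figure D5:**
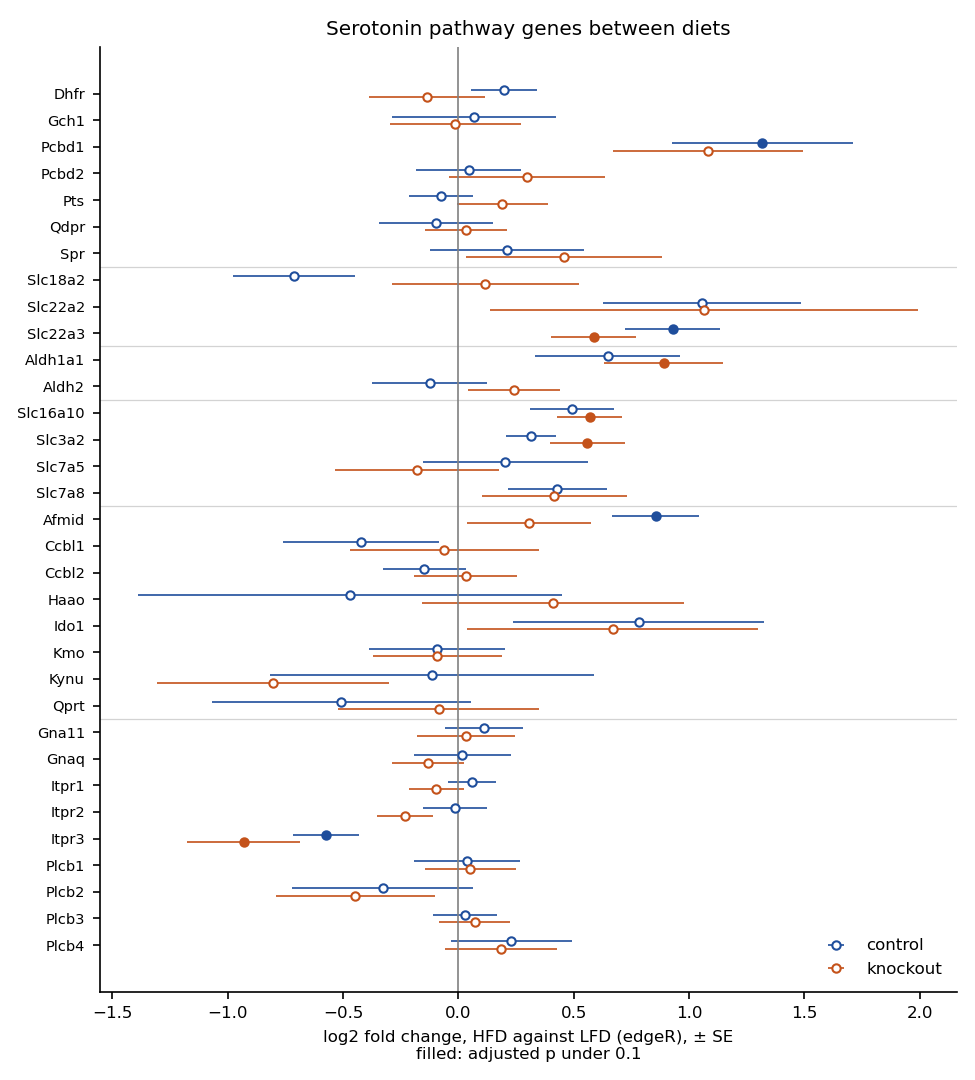
edgeR log2 fold changes of HFD against LFD with standard errors for the 33 pathway genes tested, in controls (blue) and knockouts (orange), grouped by list, with filled points at an adjusted p under 0.1. Slc22a3 and Itpr3 are filled in both genotypes, Pcbd1 and Afmid in controls, and Slc3a2, Slc16a10 and Aldh1a1 in knockouts.

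The kynurenine route, which takes tryptophan away from serotonin, had 1 of 8 tested genes called between diets in controls and 0 in knockouts. Afmid, which hydrolyses formylkynurenine, rose in controls from 1.67 ± 0.465 to 3.18 ± 0.498 TPM (edgeR log2 fold change 0.86 ± 0.19, adjusted p = 0.0264), with 1.95 and 2.82 TPM in knockouts. Between genotypes 0 of 33 pathway genes were called on either diet, over both diets or in the difference of the genotype effects. Ido1, the first enzyme of the route in most tissues, was called by DESeq2 alone on HFD, with means of 55.3 ± 30.6 TPM in controls and 17.4 ± 7.75 TPM in knockouts and with 27.6 ± 16.7 and 10.1 ± 13.2 TPM on LFD (SD, n = 5). Its log2 fold change there was -1.63 ± 0.42 (edgeR, unadjusted p = 0.00206, adjusted p = 0.458), and its adjusted p over the alternatives ran from 0.00670 with DESeq2 to 0.893. Over both diets it was -1.57 ± 0.45 (edgeR, adjusted p = 0.379), with adjusted p from 0.0486, without knockout mouse 6, to 0.792 when single mice were left out. Pcbd2, a second dehydratase of the cofactor, had groups apart on LFD, at 14.7 ± 3.54 TPM in controls and 10.2 ± 1.25 TPM in knockouts, and was not called.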

How the data were processed

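Sequencing covered iWAT RNA of 20 female mice, grouped by the labels (n = 5 each). Estimated counts come from the authors, who ran Salmon 0.13.1 on Ensembl transcripts of NCBIM37 (mm9) and deposited them unscaled. TPM, deposited by the authors, are from the same run. The submitters' notes also name STAR 2.5.3. Transcript counts and TPM were summed per gene with GENCODE vM1, which held 94334 of 96533 transcripts, and the rest took 0.377% to 0.581% of counts. Fragments with few reads can thus move a gene sum of TPM, as in Slc6a4 and Htr2b.

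Rounded counts of genes averaging 0.5 TPM or more were tested with edgeR 4.0.16 (quasi-likelihood, TMM, R 4.3.3) and called at a Benjamini-Hochberg adjusted p under 0.1. SE is the absolute log2 fold change divided by the square root of F. Members were also compared between genotypes by two-sided exact permutation tests on log2(TPM + 1), unadjusted. Alternatives used DESeq2 1.42.0, limma 3.58.1, length offsets, no filter, another pseudocount of 0.1 and leaving out each mouse. edgeR was tested on simulated data. Named pathway genes are those called, or else those whose groups do not overlap. Tbc1d15 and Trhde and the Slc6a4, Htr2b and Ddc transcripts, Ido1, Gch1 and Slc18a2 were chosen after values were seen. The members and lists were chosen with earlier results of these data known. Separate mice are replicates, and the labels give no batch. RefSeq promoter windows matched 7 of 8 members by symbol, all but Maob.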

Additional observations from a re-analysis of the deposited data

Results flagged for a closer look

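A mouse far from the other 4 of its group was looked for in 32 groups of values (8 genes in 4 groups), where chance gives about 1 in 20, and 5 were found. Tph1 was 8.87 TPM in control mouse 13 on HFD, the same mouse with the lowest Tph2 share of its group. Tph2 was 0.878 TPM in control mouse 1 on LFD. Htr2a was 2.45 TPM in knockout mouse 18 on HFD. Htr2b was 1.61 TPM in control mouse 14 on HFD, of which 1.29 TPM was the short Htr2b-002. Its Htr2b-001, at 0.320 TPM, lay between those of control mice 12 and 15, at 0.274 and 0.339 TPM. Maob was 37.4 TPM in control mouse 11 on HFD.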

How the results depend on the processing

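No paired analysis was possible because mouse numbers are not shared between groups. Member calls between genotypes were 0 under every alternative run and without any single mouse. Pathway calls between genotypes on HFD became 1 (Ido1) with DESeq2, and over both diets they were 0 to 1 without single mice. Pathway calls between diets, 4 in controls and 5 in knockouts, were 7 and 3 with limma on TPM, 2 in knockouts with length offsets, and 2 to 7 and 1 to 4 without single mice. Members with a permutation p under 0.05, 1 of 16, became 2 after TMM scaling of TPM (Maoa on LFD, p = 0.0476 by exact permutation), and were 1 to 2 without single mice. With a pseudocount of 0.1 the Tph2 difference between diets was 5.19 in controls and 3.49 in knockouts. That of Ddc was then 0.58 and 0.63, of Htr2a 0.53 and 0.88, and of Slc6a4 in knockouts 0.32. Between genotypes, signs turned without a single mouse for Tph1 on HFD (-0.020 to 0.89) and Htr2a on HFD (-0.28 to 0.41) and LFD (-0.52 to 0.031), and between diets for Htr2b in controls (-0.20 to 0.13) and knockouts (-0.09 to 0.20) and Maob in controls (-0.04 to 0.06), and the cause was not tested.

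All genes called on HFD between genotypes numbered 1 with edgeR, 99 with DESeq2, 34 with edgeR's newer method (added after seeing the data), 26 without a filter, 5 with length offsets, 3 with limma and 1 to 58 without single mice, 58 of them without mouse 21. On LFD there were 1, 17 with DESeq2 and 2 with limma, and over both diets 6, 32 with DESeq2 and 2 with length offsets. For the genotype effect on HFD against that on LFD edgeR gave 0 calls, with 560 at an unadjusted p under 0.05, and DESeq2 14. Between diets edgeR gave 676 higher and 751 lower in controls and 714 and 762 in knockouts, limma 1791 and 348, and 1009 and 525, and DESeq2 2205 and 2223 in all. Depth limits Ddc, Htr2b and, on LFD, Tph2.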

Other observations

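Tph1 was also compared with 15574 genes, after its values were seen. The genes with values most like it over the 20 libraries were Gm12248, Gpx3, D630039A03Rik, Gm10032 and Mmd2, with Pearson r from 0.772 to 0.885. After the group means were removed, r was highest for D730048I06Rik, Myb, Gm12248, Hyls1 and Rgs2, from 0.772 to 0.876. Gpx3 was then not among the first 10 genes. Gpx3, a secreted glutathione peroxidase, had means of 344 and 270 TPM on LFD and 137 and 136 TPM on HFD in controls and knockouts. The retained-intron fragment Tph1-008 had means of 5.40 and 5.38 TPM on LFD and 0.787 and 1.61 TPM on HFD, beside 19.7, 7.63, 2.45 and 1.89 TPM of Tph1-001 in the same order.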
